A study of Sus scrofa with 13 samples.

Results

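The AKT and mTOR growth pathway was examined through 9 genes listed by symbol. The list was chosen with earlier results of these data known, though its rule used no measured value. The genes were the kinases AKT1 and AKT2, the TSC subunits TSC1 and TSC2, and the kinase MTOR with its partners RPTOR and RICTOR. Also included were the mTORC1 substrates RPS6KB1 and EIF4EBP1. Of the 9 genes, 7 were matched to a row in both count tables, among 25322 Ensembl genes in all. AKT1 and TSC1 were not analysed here. The RNA came from longissimus lumborum, the loin muscle, of 13 female pigs aged 6 months from the sire-line breeds Hampshire and Pietrain. Each pig gave its own library. By the labels, Hampshire had 3 pigs of high and 3 of low loin weight, and Pietrain had 4 of high and 3 of low. The paper also counts 13 pigs, but its table of muscle weights lists 3 Pietrain pigs of high loin weight. All 4 labelled pigs were used here. Breed and loin weight group are the only contrasts in the labels, which give no allele or treatment for any pig. The tissue was taken after slaughter into RNAlater, and only RNA with an integrity number above 7.5 entered the libraries.

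AKT is the kinase that insulin and IGF signals switch on through PI3K, and it lifts the block that the TSC complex places on the small GTPase RHEB, which then activates mTOR. The mTOR kinase works in a pair of complexes: with raptor (RPTOR) it forms mTORC1, which phosphorylates S6 kinase and the translation repressor 4E-BP1 to raise protein synthesis, and with rictor (RICTOR) it forms mTORC2, which phosphorylates AKT. In skeletal muscle this pathway is known for driving fibre growth when it is active, mostly by phosphorylation, a step that transcript counts do not measure.

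On the Sscrofa10.2 assembly of the deposited tables, AKT2 (ENSSSCG00000002989) lies at chr6:44331702-44378138, MTOR (ENSSSCG00000003413) at chr6:65191722-65317849 and RPTOR (ENSSSCG00000017139) at chr12:1614056-1689108. RICTOR (ENSSSCG00000016853) lies at chr16:25361448-25498073, TSC2 (ENSSSCG00000008040) at chr3:42245980-42284735, RPS6KB1 (ENSSSCG00000017670) at chr12:37386682-37434559 and EIF4EBP1 (ENSSSCG00000022301) at chr15:55557785-55560890. The values count reads over the whole gene, exons and UTRs not being given apart. TSC2 overlaps PKD1 in these tables, and the TruSeq v2 kit does not mark strand, so reads in the overlap cannot be told apart. AKT2, RPS6KB1 and EIF4EBP1 have close paralogs, and how reads shared with them were divided is not given in the sources used here.

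Total counts per pig ranged from 11312755 to 20134612, and all 7 genes passed edgeR's filter on low counts in every fit. Levels below are CPM, counts scaled to library size, on a common TMM scale over all pigs that corrects for differences in library composition. Log2 fold changes, with their standard errors (SE), come from edgeR's quasi-likelihood test, and a gene was called where its fold change was 1.2 or more and its adjusted p (Benjamini-Hochberg over all genes) under 0.05. The skeletal muscle markers summed to between 107200 and 279200 CPM in every pig. For each gene, the deviation of log2 CPM in a pig from the gene's own mean over all pigs was also taken. In Hampshire pigs with high loin weight, this deviation was lower for genes with a long span on the chromosome than for genes with a short one. The median log2 deviation of genes in the longest quintile by span minus that in the shortest quintile was -0.909 to -0.715 in these 3 pigs, against -0.0894 to 0.0232 in Hampshire pigs with low loin weight and -0.0214 to 0.644 over the Pietrain pigs.

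**Figure D1:**
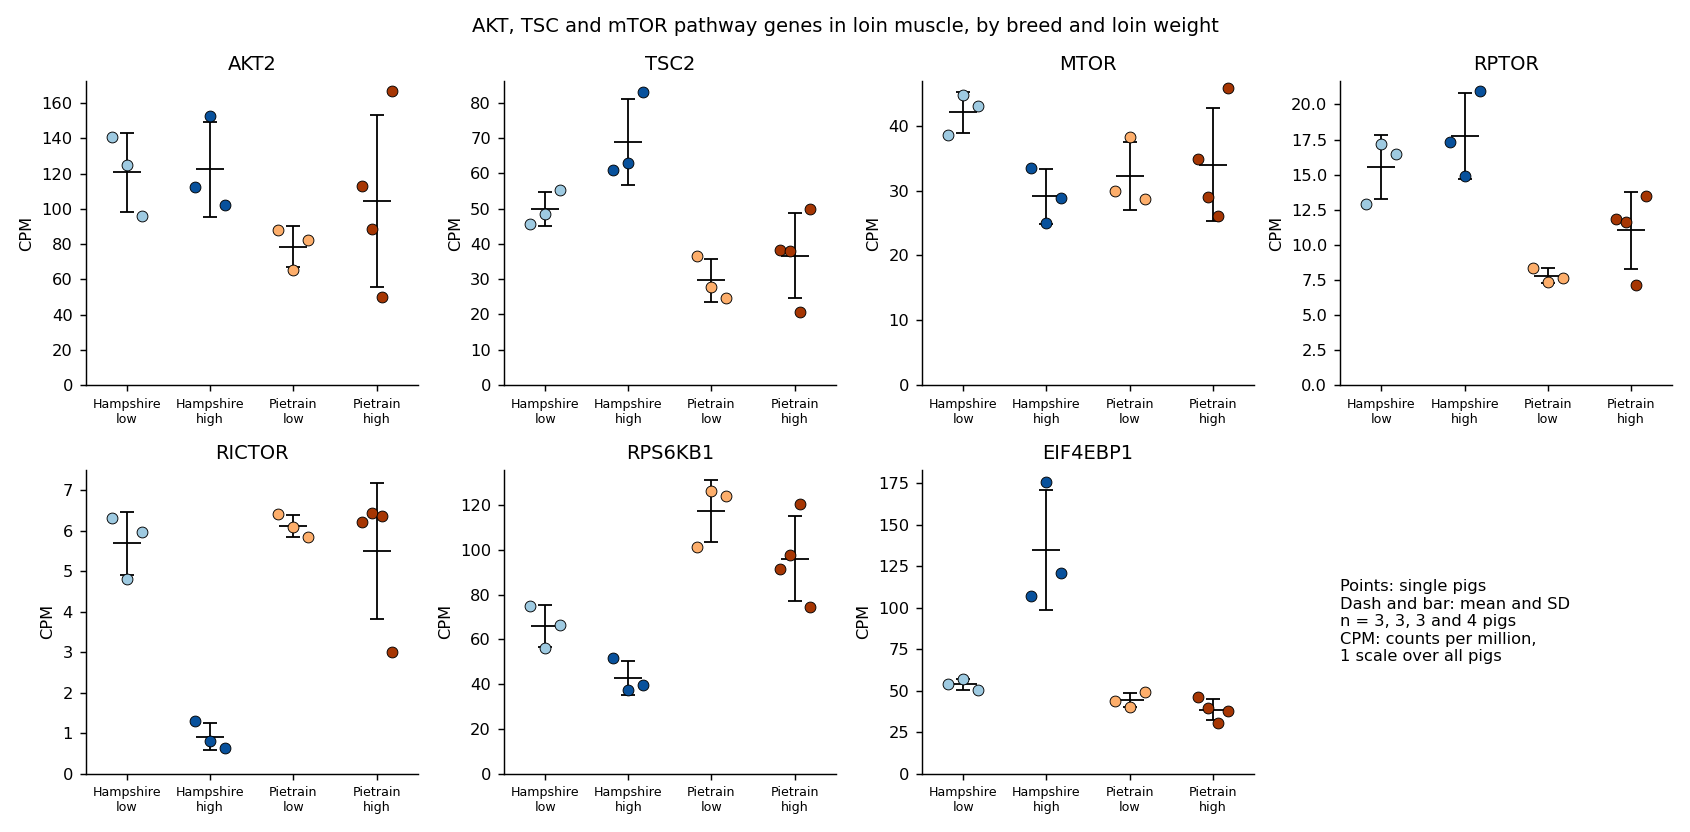
TMM-normalized CPM (vertical axis, from 0) of the 7 pathway genes in each of the 13 pigs, by breed and loin weight group (horizontal axis), with 1 point per pig and the group mean and SD as dash and bar. RICTOR lies between 0.640 and 1.29 CPM in the 3 Hampshire pigs with high loin weight and between 3.00 and 6.43 CPM in all other pigs, and EIF4EBP1 lies between 107 and 176 CPM in those 3 pigs and between 30.7 and 57.1 CPM in the others.

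The comparison of high with low loin weight in Hampshire asked which pathway transcripts differ with muscle mass inside that breed. RICTOR, the defining subunit of mTORC2, was lower in the high loin weight pigs, and MTOR and RPS6KB1 were lower by smaller amounts. EIF4EBP1, which encodes the repressor 4E-BP1, was higher. These 4 of the 7 genes were called, 1 higher and 3 lower, against 26.6% of all 12228 genes tested (12.0% higher and 14.6% lower), and AKT2, RPTOR and TSC2 were not. The median log2 fold change of the 7 genes was 0.01, beside 0.03 over all genes tested. In bulk muscle, fewer cells of a type and less RNA per cell cannot be told apart.

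The Hampshire pigs with low loin weight had 6.31, 4.81 and 5.96 CPM of RICTOR, from 103, 99 and 85 counts. Those with high loin weight had 1.29, 0.818 and 0.640 CPM, from 19, 9 and 10 counts. All 3 pigs of the high group thus lay below every other pig of the study. The log2 fold change was -2.63 (SE 0.329, adjusted p = 0.00233), which ranked 74 from the lowest of all genes tested. Without each pig in turn it ranged from -3.00 to -2.42 and stayed called.

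EIF4EBP1 measured 54.0, 57.1 and 50.5 CPM in the Hampshire pigs with low loin weight. It measured 107, 176 and 121 CPM in those with high loin weight. The groups did not overlap, and the spread was wider in the high group (SD 36.3 against 3.31 CPM, n = 3 each). The log2 fold change was 1.32 (SE 0.207, adjusted p = 0.00446), and it stayed called without each pig in turn, at 1.06 to 1.43.

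MTOR, the kinase that both complexes share, had 38.6, 44.7 and 43.1 CPM in the low group and 33.5, 25.0 and 28.9 CPM in the high group. The groups did not overlap, and the log2 fold change was -0.53 (SE 0.160, adjusted p = 0.0391). RPS6KB1, which encodes S6 kinase 1, had 74.9, 56.1 and 66.6 CPM in the low group and 51.6, 37.5 and 39.5 CPM in the high group. These groups did not overlap either, and the log2 fold change was -0.62 (SE 0.185, adjusted p = 0.0374). MTOR spans 126128 and RPS6KB1 47878 bases, and with the trend on gene span removed neither was called: MTOR then stood at -0.15 (adjusted p = 0.475) and RPS6KB1 at -0.37 (adjusted p = 0.138). MTOR was also not called without low pig 2 or 3 or high pig 9 or 10 (adjusted p = 0.0834 to 0.122) or in 1 fit over all pigs (adjusted p = 0.0966), nor RPS6KB1 without low pig 1 or 3 or high pig 9 or 10 (adjusted p = 0.0768 to 0.115).

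TSC2, whose product tuberin is the catalytic part of the brake on RHEB, had 45.7, 48.6 and 55.1 CPM in the low group and 61.0, 62.9 and 83.0 CPM in the high group. The groups did not overlap, but the log2 fold change of 0.47 (SE 0.180) missed the threshold at an adjusted p of 0.0813. With the span trend removed it passed, at 0.68 (adjusted p = 0.0249). RPTOR measured 12.9, 17.2 and 16.5 CPM in the low group and 17.3, 14.9 and 21.0 CPM in the high group. These groups overlapped, with a log2 fold change of 0.20 (SE 0.197, adjusted p = 0.488). AKT2, the AKT form best known from insulin-stimulated glucose uptake, had 141, 125 and 96.2 CPM in the low group and 113, 153 and 102 CPM in the high group. Its log2 fold change was 0.01 (SE 0.213, adjusted p = 0.967), with the groups interleaved.

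Groups without overlap were thus found for 5 of the 7 genes, against 45.9% of all genes tested in Hampshire. With 3 pigs against 3, an exact two-sided permutation test cannot go below p = 0.1, the value it gave for each of these 5 genes. The ratio of RPTOR to RICTOR counts within a pig, which needs no scaling between libraries, had a mean log2 value of 1.44 ± 0.399 (SD, n = 3) in the low group and 4.26 ± 0.644 (SD, n = 3) in the high group. The difference of 2.82 had an exact permutation p of 0.1 (0.2 after adjustment over both breeds), and each pig of the high group had a higher ratio than each of the low group.

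**Figure D2:**
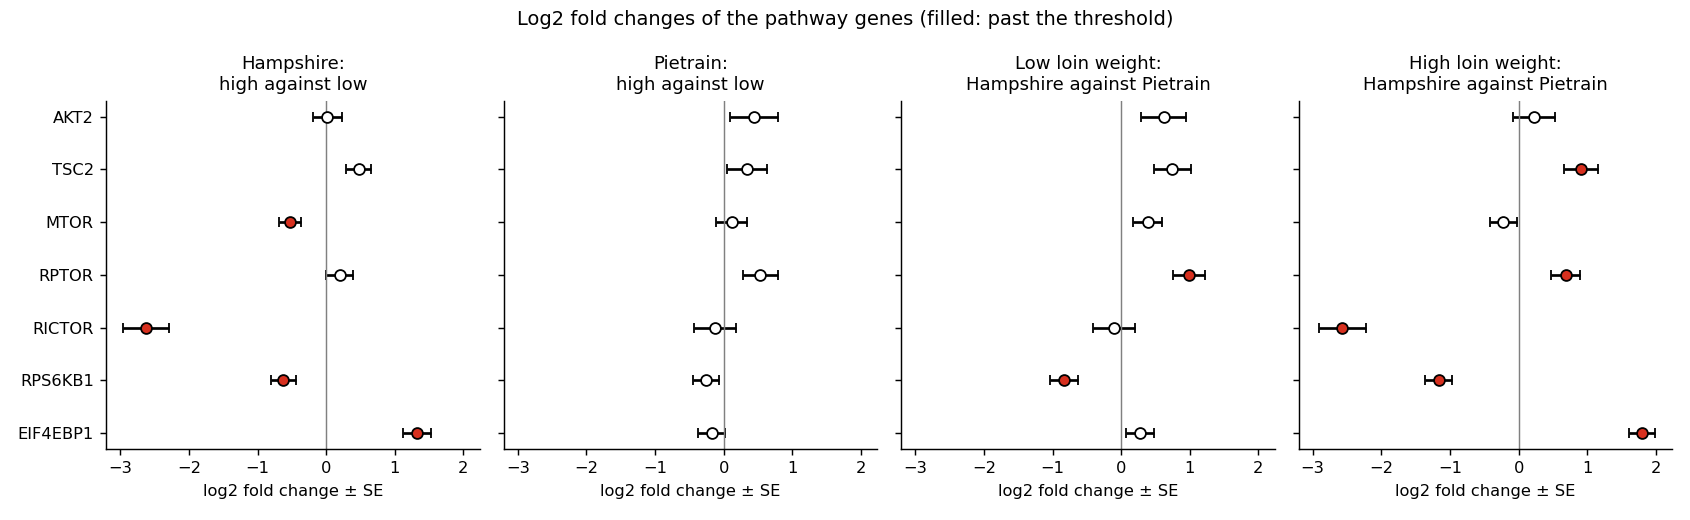
Log2 fold change (horizontal axis, bars show SE) of the 7 pathway genes (vertical axis) in the 2 comparisons of high with low loin weight and the 2 comparisons of Hampshire with Pietrain, with filled points for genes called. In Hampshire, RICTOR stands at -2.63 and EIF4EBP1 at 1.32, while in Pietrain every point is open and lies between -0.25 and 0.53.

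In Pietrain the same comparison gave another picture: no pathway gene was called, and the high and low groups overlapped for every one. Of the 12065 genes tested, 0.00% were called by edgeR, with 398 at an unadjusted p-value under 0.05, none of them among the 7. DESeq2 called 1 gene, also none of the 7. The groups of 4.59% of all genes did not overlap, against 0 of the 7.

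RICTOR measured 6.41, 6.09 and 5.85 CPM in the Pietrain pigs with low loin weight and 6.22, 6.43, 6.36 and 3.00 CPM in those with high loin weight. A single pig, number 7 of the high group, lay apart from the rest. The log2 fold change was -0.13 (SE 0.302), and without pig 7 it was 0.08. EIF4EBP1 measured 44.1, 40.4 and 49.0 CPM in the low group and 46.2, 39.8, 30.7 and 37.7 CPM in the high group, with a log2 fold change of -0.18 (SE 0.193). The 2 groups overlapped.

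MTOR had 29.9, 38.2 and 28.6 CPM in the low group and 34.9, 29.0, 26.1 and 45.9 CPM in the high group, a log2 fold change of 0.12 (SE 0.232). RPTOR had 8.38, 7.36 and 7.66 CPM in the low group and 11.9, 11.6, 7.14 and 13.5 CPM in the high group. For RPTOR, 3 of the 4 high pigs lay above all low pigs and pig 6 below them, and the log2 fold change of 0.53 (SE 0.259) was the largest of the 7 in size, with an adjusted p of 0.939. AKT2 had 87.9, 65.3 and 82.4 CPM in the low group and 113, 88.3, 49.8 and 167 CPM in the high group, a log2 fold change of 0.45 (SE 0.348). TSC2 had 36.5, 27.8 and 24.7 CPM in the low group and 38.3, 37.8, 20.8 and 49.9 CPM in the high group, a log2 fold change of 0.34 (SE 0.290). In AKT2, MTOR, RPTOR and TSC2 alike, pig 6 was the lowest and pig 7 the highest of the high group. RPS6KB1 had 102, 126 and 124 CPM in the low group and 91.7, 97.8, 120 and 74.7 CPM in the high group, a log2 fold change of -0.25 (SE 0.194), and here pig 6 was the highest and pig 7 the lowest of the high group.

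These 2 pigs also stood at the ends of their group in the gene span measure, with 0.644 in pig 6 and -0.0214 in pig 7, and pig 7 had the deepest library of all 13. The part of this in the values of the pathway genes was not tested. Without pig 7, the log2 fold change of MTOR turned from 0.12 to -0.08 and that of AKT2 went from 0.45 to 0.11. Adjusted p-values of the 7 genes in Pietrain lay between 0.939 and 0.960. The log2 ratio of RPTOR to RICTOR was 0.348 ± 0.0668 (SD, n = 3) in the low group and 1.03 ± 0.830 (SD, n = 4) in the high group, a difference of 0.678 with an exact permutation p of 0.2286. With 4 pigs against 3 the smallest p this test allows is 0.0571.

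**Figure D3:**
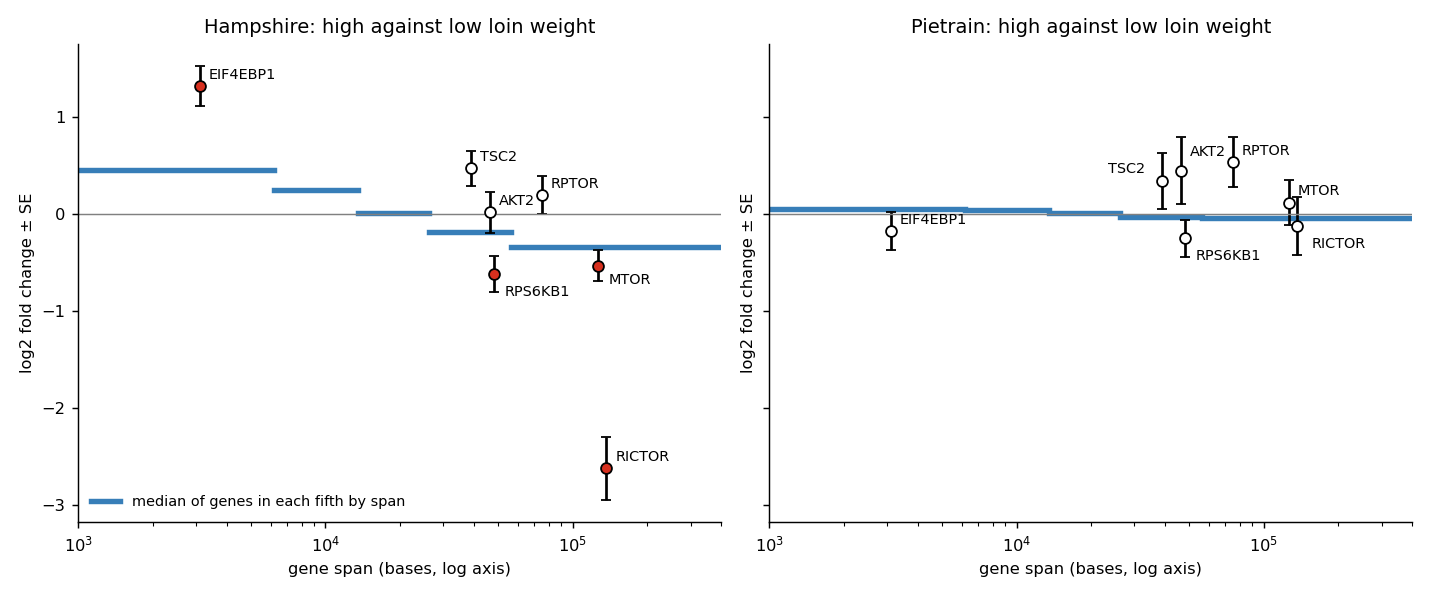
Log2 fold change for high against low loin weight (vertical axis, bars show SE) of the 7 pathway genes against gene span in bases (horizontal log axis), in Hampshire at left and Pietrain at right, with a line for the median of all genes in each quintile by span and filled points for genes called. The Hampshire medians step down from 0.45 in the shortest quintile to -0.34 in the longest, and RICTOR and EIF4EBP1 lie farthest from them, while the Pietrain medians stay between -0.04 and 0.05.

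The values were also set against gene span. Across genes, which are not independent replicates, Spearman's rho between span and the Hampshire log2 fold change was -0.386, and it was -0.0893 in Pietrain. RICTOR spans 136626 bases and is, with MTOR, in the longest quintile, where the median Hampshire log2 fold change was -0.34. RPTOR, at 75053 bases, is in the same quintile and stood at 0.20. EIF4EBP1 spans 3106 bases and is in the shortest quintile, where the median was 0.45. With the trend removed RICTOR stood at -2.24 (adjusted p = 0.00304) and EIF4EBP1 at 0.94 (adjusted p = 0.00929), so both were called with and without it.

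Whether the loin weight effect differed between the breeds was tested directly, as the Hampshire change minus the Pietrain change in 1 fit over all 13 pigs. It differed for RICTOR, by -2.46 on the log2 scale (SE 0.458, adjusted p = 0.00888), and for EIF4EBP1, by 1.53 (SE 0.278, adjusted p = 0.00793). These were 2 of the 7 genes, 1 with a higher and 1 with a lower Hampshire effect, against 5.90% of all 12831 genes tested (1.68% higher and 4.22% lower). No difference was called for MTOR (-0.61, SE 0.296, adjusted p = 0.248), nor for AKT2, RPTOR, RPS6KB1 and TSC2, whose differences lay between -0.39 and 0.16. The RICTOR difference stayed called without each pig in turn, Pietrain pig 7 included, at -2.87 to -2.30, and that of EIF4EBP1 at 1.23 to 1.61. With at least 10 counts required in every pig, RICTOR was not tested, since 1 Hampshire pig had 9.

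Between the breeds at low loin weight, RPTOR and RPS6KB1 were called, 2 of the 7 genes against 17.9% of all genes tested (7.84% higher and 10.1% lower in Hampshire). RPTOR was higher in Hampshire (15.5 ± 2.27 CPM) than in Pietrain (7.80 ± 0.522 CPM; SD, n = 3 each), and the log2 fold change was 0.99 (SE 0.237, adjusted p = 0.0186). RPS6KB1 was lower in Hampshire (65.9 ± 9.42 CPM) than in Pietrain (117 ± 13.8 CPM; SD, n = 3 each), at -0.83 (SE 0.203, adjusted p = 0.0194). For both, no Hampshire pig overlapped a Pietrain pig of the low groups. RICTOR levels were 5.69 ± 0.782 and 6.12 ± 0.279 CPM in the 2 breeds (SD, n = 3 each), and the log2 fold change stood at -0.10 (SE 0.311, adjusted p = 0.830). TSC2 (0.75, adjusted p = 0.0638), AKT2 (0.62), MTOR (0.39) and EIF4EBP1 (0.27) were not called, although the low groups overlapped only for RICTOR. TSC2 was called with DESeq2 (adjusted p = 0.0435), with the span trend removed (0.91, adjusted p = 0.0351), where at least 10 counts were required in every pig, and without Pietrain low pig 3 or high pig 6 or 7 (adjusted p = 0.0158 to 0.0431). Groups without overlap were found for 42.8% of all genes tested. Neither call held without Hampshire low pig 2 or 3 or Pietrain low pig 5 or 8, each of which left 0 of the 7 genes called, with adjusted p-values of 0.0621 to 0.0992. Over all genes, those fits called 109 to 501, against 2300 with all pigs. In them the log2 fold change was 0.95 to 1.02 for RPTOR and -0.80 to -0.68 for RPS6KB1.

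At high loin weight 5 of the 7 genes were called between the breeds, 3 higher and 2 lower in Hampshire, against 46.8% of all genes tested (22.6% higher and 24.2% lower). RICTOR was lower in the 3 Hampshire pigs (0.917 ± 0.338 CPM, SD) than in the 4 Pietrain pigs (5.50 ± 1.67 CPM, SD), with a log2 fold change of -2.57 (SE 0.341, adjusted p = 7.72e-05). EIF4EBP1 was higher in those Hampshire pigs (135 ± 36.3 CPM, SD) than in Pietrain (38.6 ± 6.38 CPM, SD), and here the log2 value was 1.80 (SE 0.190, adjusted p = 1.55e-05). RPS6KB1 was lower, at -1.16 (adjusted p = 0.000390), TSC2 was higher by 0.91 (adjusted p = 0.00788) and RPTOR by 0.68 (adjusted p = 0.0186). MTOR (-0.22) and AKT2 (0.23) were not called, and their groups overlapped. The groups of the 5 called genes did not overlap, against 48.7% of all genes tested. The TSC2 call was lost without Hampshire high pig 10 (adjusted p = 0.0610) and that of RPTOR without high pig 8 or 10 (adjusted p = 0.0505 and 0.125). The breeds stand in separate count tables, so breed and any difference in handling between them cannot be told apart, and the comparisons between breeds share pigs with those within them.

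Ordered by mean level, RICTOR was lowest in Hampshire pigs with high loin weight, apart from the other 3 groups, whose ranges overlapped with their neighbours in the order. EIF4EBP1 was highest in Hampshire with high loin weight, next in Hampshire with low loin weight, and lowest in the 2 Pietrain groups. In EIF4EBP1 only the 2 Pietrain groups overlapped. RPS6KB1 was lowest in Hampshire with high loin weight, apart from the next group, and highest in Pietrain with low loin weight. TSC2 was highest in Hampshire with high loin weight, apart from the next group. For AKT2, MTOR and RPTOR every neighbouring pair of groups overlapped.

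The wider pathway was described with 74 further genes in 6 lists, of which 64 were matched and 63 tested. In Hampshire, 13 of the 63 were called higher and 12 lower, beside the shares of all genes given above, and their median log2 fold change was -0.01. In Pietrain 0 of 62 were called by edgeR and 0 by DESeq2. The Hampshire count moved from 25 to 17 with the span trend removed (6 higher and 11 lower), to 16 in 1 fit over all pigs (5 higher and 11 lower) and to 9 to 19 when a pig was left out. The lowest of these counts were 10 without low pig 2, 9 without low pig 3, 14 without high pig 9 and 13 without high pig 10. Over all genes, 3256 of 12228 were called at first and 2319 of 9945 with the span trend removed. In 1 fit over all pigs 2541 of 12831 were called, and 1224 to 3049 when a pig was left out.

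**Figure D4:**
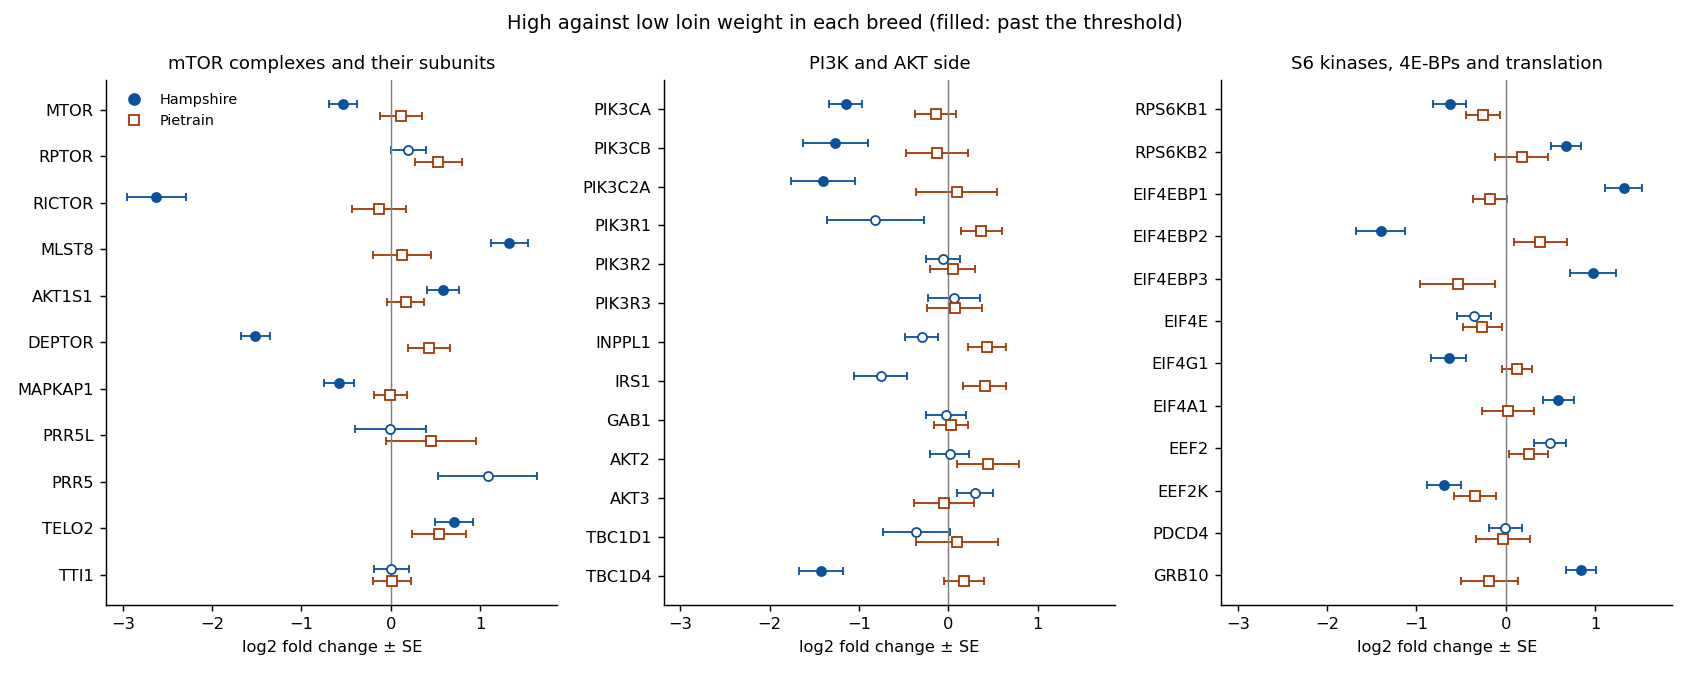
Log2 fold change for high against low loin weight (horizontal axis, bars show SE) of genes around mTOR (left), around PI3K and AKT (middle) and of S6 kinases, 4E-BPs and translation factors (right), with circles for Hampshire, squares for Pietrain and filled symbols for genes called. Filled symbols are seen for Hampshire alone, from RICTOR at -2.63 to MLST8 at 1.33 and EIF4EBP1 at 1.32, and PRR5 has no Pietrain value because it did not pass the filter there.

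Among the other subunits of the mTOR complexes, 3 of 8 were called higher and 2 lower in Hampshire. MLST8, the subunit common to both complexes, went from 8.55 ± 1.86 to 21.6 ± 2.76 CPM (SD, n = 3 each; log2 fold change 1.33, SE 0.208, adjusted p = 0.00442). AKT1S1, which encodes the mTORC1 inhibitor PRAS40, was higher by 0.58 (adjusted p = 0.0392). DEPTOR, whose product binds and inhibits mTOR, went from 27.9 ± 1.75 to 9.78 ± 0.719 CPM (SD, n = 3 each; log2 fold change -1.52, SE 0.161, adjusted p = 0.00138). MAPKAP1, which encodes the mTORC2 subunit SIN1, was lower at -0.58 (adjusted p = 0.0374). The genes of this list thus moved in both directions. DEPTOR in Pietrain was at 45.9 ± 14.7 CPM (SD, n = 3) with low and 60.7 ± 4.07 CPM (SD, n = 4) with high loin weight, and its loin weight effect differed between the breeds by -1.92 (SE 0.288, adjusted p = 0.00386).

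Upstream of AKT, genes of PI3K catalytic subunits were called lower in Hampshire. PIK3CA, the catalytic subunit p110-alpha, went from 26.7 ± 3.57 to 12.1 ± 1.86 CPM (SD, n = 3 each; log2 fold change -1.15, SE 0.187, adjusted p = 0.00510). PIK3C2A, a class II PI3K, had a log2 fold change of -1.41 (adjusted p = 0.0223). PIK3CB (-1.26, adjusted p = 0.0352), which encodes the catalytic subunit p110-beta, is named here after its value was seen. The PIK3CB call was not recomputed with changed settings or without a pig. In Hampshire pigs with high loin weight, PIK3CB had as few as 11 counts and PIK3C2A as few as 16. In Pietrain the log2 fold changes of PIK3CA, PIK3CB and PIK3C2A were -0.14, -0.13 and 0.09, none of them called.

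Of 9 genes around AKT itself, TBC1D4 was called lower and BAD higher. TBC1D4 encodes AS160, the AKT substrate that gates GLUT4 traffic, and it went from 11.3 ± 1.92 to 4.20 ± 1.11 CPM in Hampshire (SD, n = 3 each; log2 fold change -1.42, SE 0.246, adjusted p = 0.00625). Its effect differed between the breeds by -1.56 (SE 0.337, adjusted p = 0.0166). BAD, an apoptosis gene whose product AKT phosphorylates, rose by a log2 value of 0.97 (adjusted p = 0.0144). TBC1D7, the third subunit of the TSC complex, was the only one of 6 genes in its list to be called, at 0.64 (adjusted p = 0.0329).

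In the arm that reports amino acids to mTORC1, 4 of 16 genes were called higher and 2 lower in Hampshire. NPRL3, a subunit of the inhibitory GATOR1 complex, was higher by 0.89 (adjusted p = 0.00912), and LAMTOR2 of the Ragulator complex by 0.80 (adjusted p = 0.0201). RRAGC, a Rag GTPase that brings mTORC1 to the lysosome, went from 27.1 ± 0.684 to 12.8 ± 2.82 CPM (SD, n = 3 each; log2 fold change -1.09, SE 0.185, adjusted p = 0.00592). MIOS of GATOR2 was lower at -0.71 (adjusted p = 0.0388). NPRL3 overlaps MPG in the deposited tables, and their shared reads cannot be told apart.

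Among 14 translation factors and other mTORC1 outputs, 4 were called higher and 3 lower in Hampshire. The 4E-BP genes moved apart: EIF4EBP2, the paralog of EIF4EBP1, went from 5.43 ± 0.902 to 2.05 ± 0.408 CPM (SD, n = 3 each; log2 fold change -1.40, SE 0.272, adjusted p = 0.00867), against 1.32 for EIF4EBP1. EIF4EBP3, named here after its value was seen, was higher at 0.98 (adjusted p = 0.0243), a call not recomputed with changed settings or without a pig. The EIF4EBP2 effect differed between the breeds by -1.76 (SE 0.406, adjusted p = 0.0228). The S6 kinase genes did so too, with RPS6KB2 higher by 0.67 (adjusted p = 0.0216) and RPS6KB1 lower. GRB10, an adaptor that restrains insulin signalling, was higher by 0.85 (adjusted p = 0.00943), and EEF2K, the kinase that inhibits elongation, was lower at -0.69 (adjusted p = 0.0269), a gene that overlaps POLR3E. The direction of the pair EIF4EBP1 and EIF4EBP2 was the same with the span trend removed (0.94 and -1.39, both called), while RPS6KB1 and RPS6KB2 were then not called. EIF4EBP2 had as few as 18 counts in a pig.

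Of the 17 genes named by rule from these lists in Hampshire, 7 were called in all 10 refits run for single genes (DESeq2, its size factors, the span trend removed, 1 fit over all pigs and each of the 6 pigs left out): DEPTOR, EIF4EBP2, MLST8, NPRL3, PIK3CA, RRAGC and TBC1D4. The call was lost in 7 of the 10 for AKT1S1, in 6 for MAPKAP1, MIOS, RPS6KB2 and TBC1D7, in 5 for PIK3C2A, in 4 for LAMTOR2 and EEF2K, and in 1 for BAD and GRB10. For the difference between breeds, 4 of the 63 genes were called, against 5.90% of all genes tested, and the effect was lower in Hampshire for each: DEPTOR, EIF4EBP2 and TBC1D4 by rule, and RRAGC (-1.14, adjusted p = 0.0453), named after its value was seen. When pigs were left out in turn, the RRAGC call was lost in 8 of 13 fits. The EIF4EBP2 call was lost without Hampshire low pig 2 or high pig 9 (adjusted p up to 0.0554), each of which left 2 of the 63 called. Over all genes, these fits called 487 of 13172 and 424 of 13273. DESeq2 called 10 of the 63 for this difference (4 higher and 6 lower), beside 1223 of all 12831 genes tested. Without Pietrain high pig 7, edgeR called 9 (3 higher and 6 lower), beside 982 of all 12760 genes tested. Between the breeds, 15 of the 63 were called at low loin weight (8 higher and 7 lower in Hampshire) and 38 at high loin weight (21 higher and 17 lower), against 17.9% and 46.8% of all genes tested. The 15 fell to 0 without Hampshire low pig 2 or Pietrain low pig 8, and to 1 without Hampshire low pig 3 or Pietrain low pig 5. Over all genes, those fits called 109, 111, 501 and 163 in the same order, against 2300 with all pigs. At low loin weight PIK3R2 (0.93) and GSK3A (0.62) were the genes named as higher in Hampshire, and PIK3CA (-0.92) and RHEB (-0.77) as lower, with adjusted p-values of 0.0191 to 0.0233. Each of these 4 calls was lost in 4 of 13 fits that left out a pig. At high loin weight they were MLST8 (2.25) and LAMTOR2 (1.17) as higher and DEPTOR (-2.63) and TBC1D4 (-2.18) as lower, and these held in all 13.

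The summed macrophage and fibroblast markers were higher in Hampshire pigs with high than with low loin weight. The summed level of 9 macrophage markers was 53.8 to 132 CPM with low and 157 to 224 CPM with high loin weight. That of 7 fibroblast markers was 750 to 1616 CPM with low and 1926 to 4951 CPM with high loin weight. Called higher were 2 of 9 macrophage and 3 of 7 fibroblast markers, against 12.0% of all genes tested. In Pietrain the macrophage sums were 19.6 to 29.9 CPM with low and 20.9 to 59.2 CPM with high loin weight, and the fibroblast sums 968 to 1612 and 849 to 2326 CPM. None of these markers was at 0 in all pigs of a group. Among the muscle markers MYH1 was called lower and CKM and MYH7 higher in Hampshire. Of 5 endothelial markers 1 was called higher, and of 4 tested blood markers 0 were called. The 4 adipocyte markers went both ways, with 1 called higher and 1 lower. Their sum was 153 to 204 CPM with low and 77.4 to 175 CPM with high loin weight. Between the breeds, 6 of 9 macrophage markers were called higher in Hampshire at low and 8 of 9 at high loin weight. Of all genes tested, 7.84% and 22.6% were called higher in these comparisons. At high loin weight 4 of 7 fibroblast, 2 of 5 endothelial and 1 of 4 blood markers were also called higher. The part of these shifts in the values of the pathway genes was not tested.

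The genes whose pattern over the 13 pigs was most like each pathway gene were taken by the root-mean-square difference of centred log2 CPM, as a description. For RICTOR they were NUFIP2 (0.239) and MCCC2 (0.264), where RICTOR itself spread by 0.946 around its mean. For EIF4EBP1, with a spread of 0.71, TEN1 was among them (0.200). RPS6KB1 lay closest to the splicing regulator genes HNRNPA2B1 (0.0912) and SCAF11 (0.104), RPTOR to MGRN1 (0.113) and SNRNP70 (0.135), and TSC2 to NARFL (0.104) and PPP6R2 (0.120). MTOR lay closest to DDX11 (0.139) and KRI1 (0.15), and AKT2 to E2F4 (0.163) and TMEM259 (0.179). Among genes tested in Hampshire, the nearest to RICTOR on either side were OSMR (12456 bases away) and DAB2 (238116 bases away). Their Hampshire log2 fold changes were 0.62 and 0.59, opposite in sign to RICTOR.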

How the data were processed

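RNA-seq libraries of longissimus lumborum from 13 pigs were analysed. For each breed the authors deposited a table of raw read counts by Ensembl gene, whole numbers that were not normalized, on the Sscrofa10.2 assembly. Their submission names FastQC, STAR, RSEM and DESeq2 as tools, without versions. The authors' tables of fold changes, test statistics and p-values were used for gene symbols and coordinates only, and symbols missing there came from RefSeq's gene table for Sscrofa11.1, so that 13168 of 25322 identifiers had a symbol. Where a gene's reads overlap another gene or a paralog, the rule of counting is not given in the sources used here.

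Counts were tested in R 4.3.3 with edgeR 4.0.16 (glmQLFit and glmQLFTest after TMM, with filterByExpr on the groups), separately in Hampshire and Pietrain for high against low loin weight, and in 1 fit with 4 group means for the difference between breeds and the comparisons between them. Calls needed a fold change of 1.2 or more with a Benjamini-Hochberg adjusted p under 0.05, or the adjusted p alone for the difference between breeds. The SE is the size of the log2 fold change over the square root of F. Exact permutation tests (scipy 1.17.1) were two-sided, on log2 of CPM plus 0.5 or of the ratio of counts plus 0.5. Pigs are the replicates, and in all 15 pairs of pigs within a group the counts differed by more than sampling noise (chi-square per degree of freedom of at least 21.9). Nothing in the labels ties pigs to litters or days. The pathway genes, the lists, the markers and the alternatives were chosen with earlier results of these data known.

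Genes named were the 9 pathway genes, and in each of 6 lists the 2 called higher and the 2 called lower in Hampshire with the smallest adjusted p. To these came, over all lists, the 2 in each direction for each comparison between breeds and the 3 for the difference between breeds. Of 74 listed genes outside the 9, 64 were matched. Some results for single genes are not reported here. Gene span is the end minus the start of a gene in the deposited tables plus 1, and 9975 genes had one. The alternatives were DESeq2 1.42.0, its size factors in edgeR, no filter, at least 10 counts in every pig, no fold change threshold, a per-pig smooth trend of log2 CPM on gene span removed, 1 fit over all pigs and leaving out each pig. The tests were tested on simulated data before use. Figures were drawn with matplotlib 3.10.9.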

Additional observations from a re-analysis of the deposited data

Results flagged for a closer look

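RICTOR in Pietrain pigs with high loin weight had 1 pig apart from the other 3: pig 7 measured 3.00 CPM, and its gap to the next pig passed Dixon's critical value for 4 samples. By chance about 1 in 20 such groups passes, and 7 were examined.

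The loin weight effect differed between Hampshire and Pietrain, by edgeR's test of the difference over all pigs, for 6 genes, 2 of the 7 and 4 of the 63 other pathway genes tested, against 5.90% of all genes tested. On the log2 scale the Hampshire effect minus the Pietrain effect was -2.46 for RICTOR, 1.53 for EIF4EBP1, -1.92 for DEPTOR, -1.56 for TBC1D4, -1.76 for EIF4EBP2 and -1.14 for RRAGC. When pigs were left out in turn, the RRAGC call was lost in 8 of 13 fits and that of EIF4EBP2 in 2.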

How the results depend on the processing

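Of 483 recomputed results of the 7 genes, 443 kept their direction and their side of the threshold, 22 lost and 6 gained the call, and 12 turned direction. Of 362 for the other named pathway genes, 290 stayed the same in this sense and 72 lost the call. RICTOR and EIF4EBP1 stayed called in Hampshire, in the difference between breeds and between the breeds at high loin weight under every alternative that tested them. RICTOR was not tested where at least 10 counts were required in every pig, which left 1 gene called for the difference between breeds. With the span trend removed, RICTOR between the breeds at low loin weight turned to 0.0805 and MTOR at high loin weight to 0.26. When pigs were left out, AKT2 ranged from -0.20 to 0.12 in Hampshire and from -0.0311 to 0.55 between breeds at high loin weight. RICTOR ranged from -0.17 to 0.0487 between breeds at low loin weight and from -0.19 to 0.0752 in Pietrain, MTOR from -0.0779 to 0.24 in Pietrain, and TSC2 from -0.11 to 0.35 for the difference between breeds. The number of the 7 genes called then ranged from 2 to 4 in Hampshire, 0 to 3 between breeds at low and 3 to 5 at high loin weight, and it was 2 for the difference and 0 in Pietrain throughout. The same counts for the other pathway genes, an addition chosen after seeing the data, ranged from 9 to 19 in Hampshire, 0 to 22 and 30 to 39 between breeds at low and high loin weight, and 2 to 9 for the difference. Calls over all genes moved as well in these fits, at 1224 to 3049 in Hampshire and 379 to 1052 for the difference. Between breeds they ranged from 109 to 3091 at low and from 4640 to 6288 at high loin weight. DESeq2 called 10 of the other pathway genes for the difference, beside 1223 of all 12831 genes tested. In Hampshire, 1 fit over all pigs called 16 of them, beside 2541 of all 12831 genes tested. The log2 ratio of RPTOR to RICTOR differed between loin weight groups by 2.47 to 3.10 in Hampshire and 0.30 to 0.96 in Pietrain without a pig. The causes were not tested. Ratios of AKT1 to AKT2 and of TSC1 to TSC2 were planned and not run, since AKT1 and TSC1 were not matched. No paired analysis was run, since every pig is a different animal and nothing in the labels pairs pigs between groups. The paper describes the pigs as unrelated. Depth limits RICTOR most, with 9 to 19 counts in Hampshire pigs with high loin weight.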
